A study of Sus scrofa domesticus with 150 samples.

Results

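A set of 8 genes known for calling neutrophils into tissue or for marking these cells was followed through the healing of pig skin wounds: CXCL8, CXCR2, CSF3, CSF3R, TREM1, FPR1, FPR2 and ITGAM. Members were the rows of the gene count table that carried one of these 8 symbols, either as the gene name or, for rows with no name, as the gene of the best protein match. This rule found 7 of 30461 rows, for 6 of the 8 symbols. No row was found for FPR1 or FPR2, which were not analysed here. CXCR2 had 2 rows, found by name and by a protein match, and the latter row is called CXCR2-match in the text and figures.

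RNA was sequenced from 150 skin and wound samples of 6 animals. The pigs were female domestic animals of a Yorkshire mix, whose age was not given in the sources used here. They carried full-thickness, circular excisional wounds on the back, covered with dressings and given no treatment beyond a topical antibiotic at the biopsy site. The skin removed at wounding gave the 6 day 0 samples, 1 per animal, as the unwounded reference. By the paper these were all of the excised tissue, while later samples were small biopsies. Day 0 therefore differs from the wound states in the kind of sample as well as in wounding. On 14 later days one biopsy came from the wound edge and one from the wound center, and a wound left the study once biopsied, which makes 29 wound tissue states in all. Animals 1323, 1324 and 1325 were sampled on days 1, 3, 5, 7, 11, 15 and 21, and animals 1326, 1327 and 1328 on days 2, 4, 6, 9, 13, 16 and 19. Each state held 6 samples (2 wounds in each of 3 animals), apart from days 15, 16, 19 and 21, which held 3 samples per location (1 wound in each of 3 animals). Days sampled in different sets of animals therefore differ in animals as well as in time, while day 0 holds all 6 animals. The tests below count wounds, not animals.

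Neutrophils leave the blood and move into injured skin along gradients of chemokines and bacterial products. CXCL8, also called interleukin 8, is the best known of these chemokines, and CXCR2 is a receptor for it on the neutrophil surface. CSF3, or G-CSF, drives the making and release of neutrophils in the bone marrow through its receptor CSF3R. TREM1 is a receptor that amplifies the inflammatory response of neutrophils and monocytes. ITGAM, or CD11b, is the alpha chain of the integrin Mac-1 that lets neutrophils, monocytes and macrophages adhere and take up complement-coated particles. Receptors of the FPR family sense formylated bacterial peptides. Several of these genes are also used by other cells: keratinocytes, fibroblasts, endothelial cells and macrophages can make CXCL8 and CSF3.

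All positions are those of the deposited annotation, which lies on numbered contigs, and the genome build was not given in the sources used here. CXCL8 (ENSSSCG00025017428) lay on contig LUXX01018793.1 from 3456350 to 3459574 on the minus strand. CXCR2 (ENSSSCG00025021493) lay on contig LUXX01031818.1 from 2694979 to 2706362 on the minus strand. CXCR2-match (ENSSSCG00025021399) lay on the same contig from 2665044 to 2671869 on the plus strand, with 23109 bases between the annotated ends. Whether this row is CXCR2 or a near copy of it cannot be read from the symbol, and reads of near copies can be split in counting, so its identity is uncertain. CSF3 (ENSSSCG00025065654) lay on contig LUXX01073178.1 from 1107017 to 1109525, plus strand. CSF3R (ENSSSCG00025025682) lay on contig LUXX01042468.1 from 2921459 to 2936806, minus strand. TREM1 (ENSSSCG00025056327) lay on contig LUXX01068002.1 from 2660441 to 2682270, plus strand. ITGAM (ENSSSCG00025042349) lay on contig LUXX01079974.1 from 1535932 to 1604969, minus strand. All 7 rows are annotated as protein coding genes.

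The libraries held 13133379 to 24895572 counts in genes, with a median of 17643938, so that 3 counts corresponded to between 0.1205 and 0.2284 reads per 1000000 gene counts (CPM). Earlier work on these data had set 3 libraries apart: the day 2 center of animal 1326 wound L, the day 3 center of animal 1324 wound G and the day 3 edge of animal 1325 wound G. The paper names deviating samples by day, location and sample number only. The match of these animals and wounds to its samples is therefore uncertain. Results that change without the 3 libraries are given with and without them. Adjusted p-values below come from edgeR's quasi-likelihood F test with Benjamini-Hochberg adjustment over all genes tested, and a call means an adjusted p below 0.05. Log2 differences are those of the edgeR fit, with their standard errors.

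In unwounded skin these genes were low, and all of them were higher in the wound on day 1. On the FPKM scale of the authors, which takes transcript length into account, CXCR2 was the highest row at day 0 with a median of 3.03 FPKM, followed by TREM1 (0.714) and CSF3R (0.680). CXCL8 had a day 0 median of 0.0541 FPKM, and in the wound center of days 1 to 3 it was the highest of the 7 rows with a median of 266 FPKM. CSF3R followed there with 36.2 FPKM, then CXCR2 with 18.7, CXCR2-match with 10.4, CSF3 with 10.3, TREM1 with 8.05 and ITGAM with 4.25. The order of the genes in unwounded skin was thus not their order in the early wound. In bulk tissue, fewer cells of a type and less RNA per cell cannot be told apart.

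CXCL8 was at the limit of detection in day 0 skin, with 0 to 9 counts per library and 0 to 0.573 CPM (median 0.0989 CPM, n = 6). On day 1 it had a lowest, median and highest level of 42.7, 249 and 1161 CPM at the edge. The day 1 center held 195, 357 and 862 CPM. Every sample of all 14 edge states and all 14 center states lay above every day 0 sample. The highest mean on the log2(1 + CPM) scale was that of the day 5 center, where CXCL8 ranged from 132 to 4671 CPM with a median of 1703. The highest single sample was the day 9 center of animal 1327 wound H with 8094 CPM, or 160615 counts. All 28 tests against day 0 were called. Calls at the late edge did not all last. That of day 15 was lost without the 3 libraries set apart (adjusted p = 0.0531), with the animal as a block (adjusted p = 0.23), and without animal 1323 (adjusted p = 0.466), 1324, 1325, 1326 or 1328 (adjusted p 0.0616 to 0.0742). That of day 21 was lost with this block (adjusted p = 0.138) and without animal 1323 (adjusted p = 0.271), and with limma the edge calls of days 15, 16 and 21 were all lost. No fold change over day 0 is given for CXCL8, because 5 of the 6 day 0 libraries held 3 counts or fewer.

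CSF3, the other secreted factor, moved over a smaller range. It was 0.180 to 1.71 CPM at day 0 (median 0.503), 1.78 to 8.74 CPM at the day 1 edge (median 4.33) and 3.62 to 72.8 CPM in the day 1 center (median 24.3). Its highest state mean was that of the day 7 center, with 4.95 to 71.7 CPM and a median of 47.7. CSF3 was higher than day 0 in 6 of 14 edge states and 12 of 14 center states. The day 1 edge call (adjusted p = 0.0439) was lost with the animal as a block (adjusted p = 0.15) and without animal 1323, 1324, 1325, 1326 or 1328 (adjusted p 0.0692 to 0.117). On days 19 and 21 no sample lay above the day 0 samples, with 0.224, 0.278 and 0.550 CPM in the day 19 center and 0.116, 0.366 and 0.391 CPM in the day 21 center. The call for the day 15 center rested on animal 1325, whose sample held 18.5 CPM against 0.849 and 0.445 CPM in the other two, and without that animal the log2 difference was -0.17.

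The receptors rose on day 1 as well. CSF3R went from between 1.201 and 5.31 CPM at day 0 (median 2.16) to between 71.4 and 383 CPM in the day 1 center (median 157), a log2 difference of 5.99 ± 0.69 (SE, adjusted p = 4.12e-13 by edgeR). It was higher than day 0 in 12 of 14 edge states and all 14 center states by the test, and in 12 edge and 14 center states no sample overlapped the day 0 samples. CXCR2 had the highest starting level and the smallest rise: 5.04 to 14.2 CPM at day 0 (median 10.4) and 54.3 to 187 CPM in the day 1 center (median 91.9), a log2 difference of 3.15 ± 0.54 (adjusted p = 2.84e-07 by edgeR). CXCR2-match began near 0, with 0.0571 to 0.955 CPM at day 0 (1 to 15 counts, median 0.172 CPM), and reached 33.9 to 151 CPM in the day 1 center (median 80.5). TREM1 rose from between 0.234 and 2.97 CPM at day 0 (median 1.32) to between 9.93 and 41.2 CPM in the day 1 center (median 14.9). TREM1 was higher than day 0 in 7 of 14 edge states, days 1 to 7, and in 11 of 14 center states. At the edge of days 15 and 16 its medians were 0.431 and 0.366 CPM, below that of day 0 but not called lower. CXCR2 was higher in 10 edge and 11 center states and CXCR2-match in 12 edge and 14 center states. Without animal 1327 the center calls of CXCR2 on days 6, 13 and 16 were lost (adjusted p = 0.28, 0.0711 and 0.128), as was that of TREM1 on day 16 (adjusted p = 0.579). With the animal as a block CXCR2 was lost at the edge of days 9 and 11 and in the center of day 11 (adjusted p 0.0592 to 0.187), TREM1 in the center of day 11 (adjusted p = 0.156), CSF3R at the edge of day 16 (adjusted p = 0.0752) and CXCR2-match in the center of day 21 (adjusted p = 0.196).

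ITGAM, the integrin chain, had the lowest median SD within states of the 7 rows (0.567 in log2(1 + CPM)). It was 0.473 to 3.29 CPM at day 0 (median 1.13) and was highest in the day 3 center, with 20.0 to 48.8 CPM (median 37.4) and a log2 difference of 4.68 ± 0.46 (adjusted p = 5.25e-16 by edgeR). It was higher than day 0 in all 14 edge and all 14 center states, day 21 included, where the center held 2.46, 7.86 and 5.55 CPM and the edge 2.58, 3.33 and 3.98 CPM. Every sample lay above every day 0 sample in 7 of the 14 edge states and 12 of the 14 center states. In the other states samples overlapped the day 0 range, as early as the day 1 edge (lowest sample 2.16 CPM). With the animal as a block the calls for the day 15 edge (adjusted p = 0.107) and the day 21 edge (adjusted p = 0.30) were lost, and without animal 1328 that of the day 16 edge was lost (log2 difference 0.65, adjusted p = 0.553). Without animal 1326 those of the day 19 edge (adjusted p = 0.236) and center (adjusted p = 0.0795) were lost, and without animal 1325 that of the day 21 edge (adjusted p = 0.146).

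Over the 7 rows, 75 of 98 tests of an edge state against day 0 were called higher, and 90 of 98 tests of a center state. Over all genes tested, 19.9% of the pooled edge tests and 28.2% of the pooled center tests were called higher than day 0. No member was called lower than day 0 in any state. All of these contrasts share the same 6 day 0 samples and are not independent of each other. The median log2 difference was 2.82 for the edge tests and 4.28 for the center tests, while the median over all genes lay between -0.066 and 0.05 across the 28 states. How many of all genes lay fully apart between groups is not given here. Statements of no overlap, above and below, therefore describe the named rows alone.

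**Figure D1:**
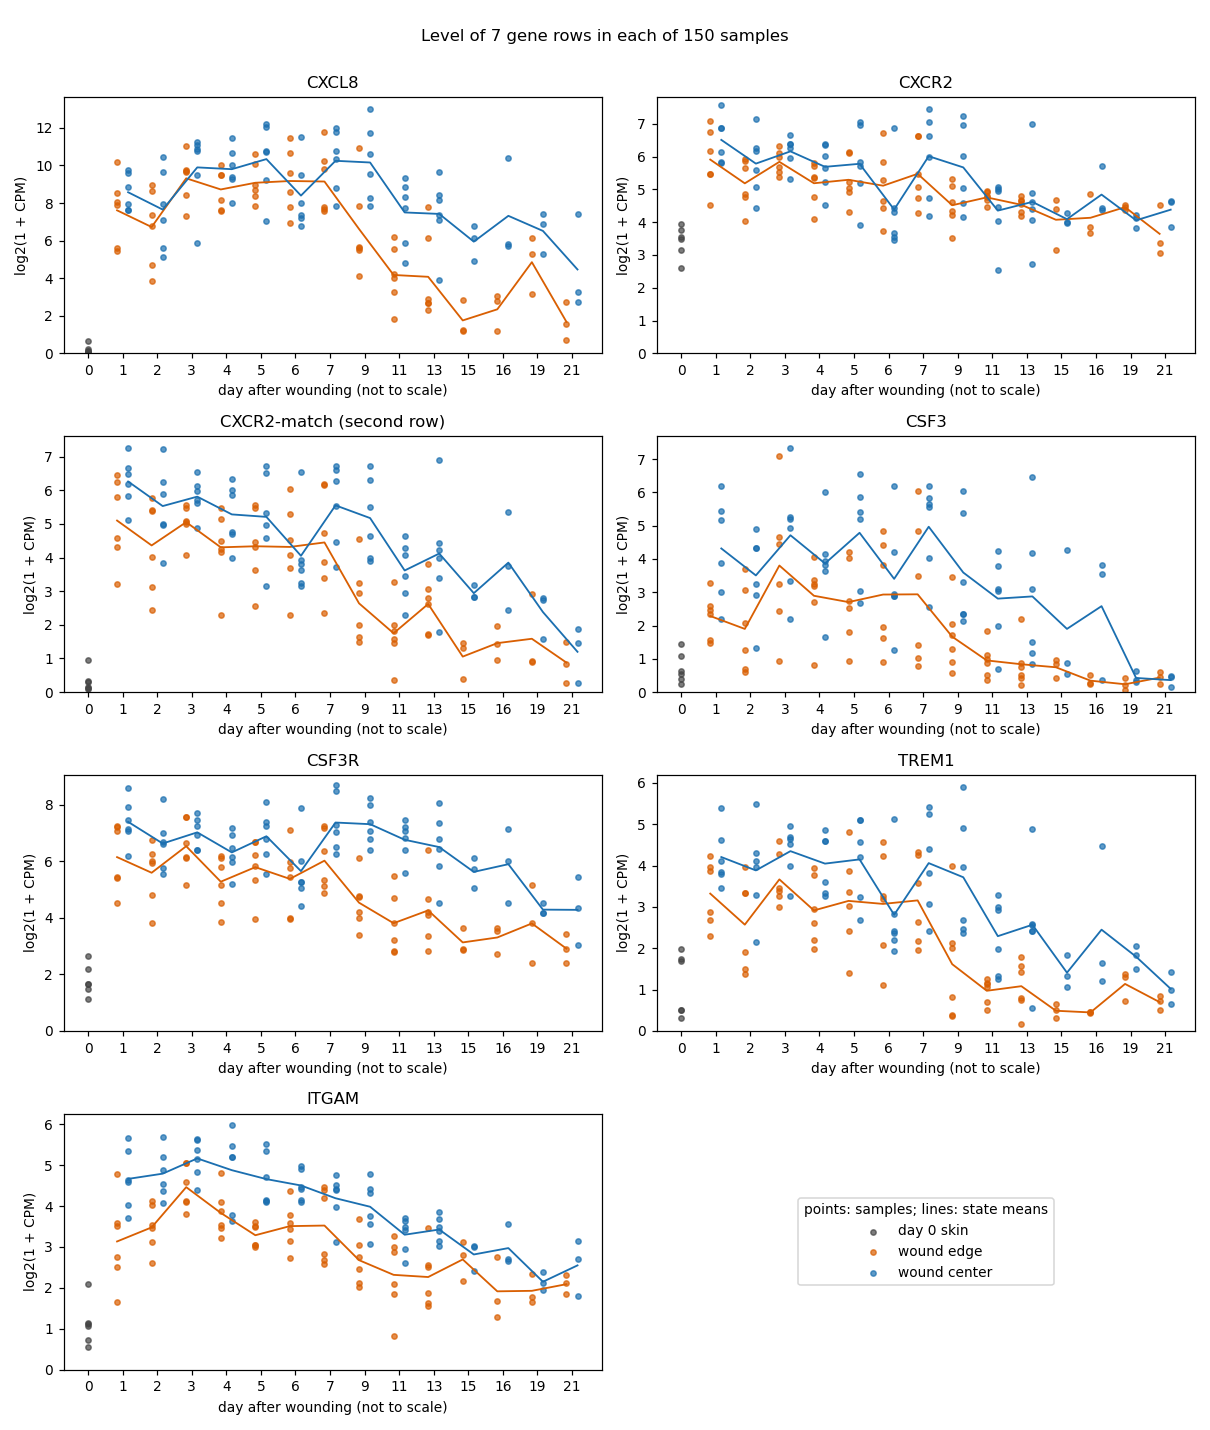
Level of the 7 rows, one panel per row, as log2(1 + CPM) against the day after wounding (days evenly spaced, not to scale); points are samples, lines join the means of the edge and of the center states, and day 0 is unwounded skin. The means of all rows stood above day 0 on day 1. The edge means of CSF3R and ITGAM lay below the center means on all 14 days, and those of CXCL8, TREM1 and CXCR2-match on every day but day 6.

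The next question was how the wound edge, which borders intact skin, compared with the wound center. Within single days, 27 of 95 member-day tests were called, and all 27 were lower at the edge. Of the 95 differences 88 were below 0, and 45 had an unadjusted p below 0.05, among them CXCR2 on day 19, which was higher at the edge. CSF3 was too low to be tested on days 16, 19 and 21. Over all genes, 11.0% of the tests pooled over 14 days were called lower at the edge and 12.5% higher. ITGAM was called on 7 days (1, 2, 4, 5, 6, 9 and 13), CSF3 on 5 (1, 5, 9, 11 and 13), CSF3R on 5 (9, 11, 13, 15 and 16), CXCR2-match on 4 (9, 11, 13 and 15), TREM1 on 3 (11, 13 and 15), CXCL8 on 2 (11 and 15) and CXCR2 on 1 (day 9).

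On days 1 to 7, 7 calls were made in this fit, all of ITGAM or CSF3. Day 1 had 2 of 7 rows called lower, beside 22.6% of all genes tested, and day 5 had 2 of 7 beside 16.8%. A single row was called on day 2 (beside 17.7%), day 4 (beside 11.4%) and day 6 (beside 3.92%). For day 3 the count was 0 of 7 beside 0.0% of all genes, and for day 7 it was 0 of 7 beside 17.1%. Most of these shares are near the background of the day. On days 9, 11 and 13, 5 of 7 rows were called on each day, against 14.3%, 22.9% and 11.8% of all genes. Day 15 had 4 of 7 (9.81%) and day 16 had 1 of 6 (5.87%). On days 19 and 21 none of 6 rows was called by edgeR (0.0% of all genes on both days). By unadjusted p, 1 and 2 rows were below 0.05 on these days, and 2 rows on day 3. The row of day 19 was CXCR2, which was higher at the edge (0.49 ± 0.20), while those of days 3 and 21 were lower. Only 3 wounds per location were sampled on days 15 to 21. The day 3 center of animal 1324 wound G and the day 3 edge of animal 1325 wound G are among the 3 libraries set apart. The day 3 values here include them. Without the 3 libraries, 28 member-day tests were called over all days in place of 27.

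Edge and center samples of one wound pair, and with the wound as a block in the fit of each day the calls rose from 27 to 40, all lower at the edge. The early days gained most: 20 calls fell on days 1 to 7 and 20 on days 9 to 21, so that the first days were no longer those of ITGAM and CSF3 alone. Day 2 had 6 of 7 rows called, against 16.4% of all genes in that fit, and day 4 had 5 of 7 against 21.4%. Days 1 and 5 had 3 of 7 each, against 22.7% and 20.5%, day 7 had 2 of 7 against 18.2%, day 6 had 1 of 7 against 4.51% and day 3 had 0 of 7 against 0.0%. Of the later days, 9 and 11 had 6 of 7 each, against 17.9% and 24.7%, day 13 had 3 of 7 against 14.2%, day 15 had 4 of 7 against 7.57% and day 16 had 1 of 6 against 7.95%. Days 19 and 21 had 0 of 6 each by edgeR, against 0.0% and 0.0547%. By unadjusted p, 4 rows on day 3 and 2 rows on each of days 19 and 21 were below 0.05. All of these were lower at the edge but CXCR2 on day 19, which was higher (0.50 ± 0.20). On day 2 TREM1 was lower at the edge in 6 of 6 wounds (-1.51 ± 0.31, adjusted p = 0.00711 by edgeR), as was CXCR2-match (-1.21 ± 0.20, adjusted p = 0.00275). CXCL8 was not called on days 1 to 7 in either fit, and on day 9 it was called with the block (-3.48 ± 0.61, adjusted p = 0.00327 by edgeR). Lost with the block were the day 13 calls of TREM1 (adjusted p = 0.121) and CXCR2-match (adjusted p = 0.134) and the day 9 call of CXCR2 (adjusted p = 0.0553). Leaving out 1 wound of every day gave 12 to 23 calls in place of 27 in the fit without the block, the lowest without the second wound of each day (animal 1324 or 1327 on the days with 3 wounds) and 16 without the third.

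CSF3R was called on each of days 9 to 16. On day 9 the 6 edge samples held 9.49 to 68.2 CPM (median 21.4) and the 6 center samples 82.9 to 296 CPM (median 149), and the groups did not overlap. The log2 difference was -2.74 ± 0.46 (adjusted p = 0.00064 by edgeR). On day 15 the edge held 11.4, 6.36 and 6.34 CPM and the center 68.1, 31.8 and 51.7 CPM, again without overlap, a log2 difference of -2.70 ± 0.40 (adjusted p = 0.0178 by edgeR). The day 15 call was lost without the wound of animal 1324 (adjusted p = 0.159) or 1325 (adjusted p = 0.0958). On day 3, with the libraries set apart included, the same receptor differed by -0.36 ± 0.40 (adjusted p = 0.705).

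CXCL8 was called lower at the edge on days 11 and 15. On day 11 the edge held 2.51 to 72.2 CPM (median 16.2) and the center 27.4 to 645 CPM (median 264), a log2 difference of -3.36 ± 0.87 (adjusted p = 0.00845 by edgeR). On day 15 the edge held 6.14, 1.28 and 1.34 CPM and the center 70.5, 28.9 and 108 CPM, a log2 difference of -4.56 ± 0.86 (adjusted p = 0.0251 by edgeR). On day 16 the edge held 1.25, 5.88 and 7.45 CPM and the center 51.7, 1356 and 55.7 CPM. The groups did not overlap on day 16 either, but its adjusted p was 0.0562, and the day 15 call was lost without the wound of animal 1324 (adjusted p = 0.16) or 1325 (adjusted p = 0.113). On day 6 the order was the other way round, with a median of 572 CPM at the edge and 208 CPM in the center, a log2 difference of 0.48 ± 0.89 (adjusted p = 0.786).

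TREM1 and CXCR2-match are given for single days. TREM1 on day 11 held 0.430 to 1.41 CPM at the edge (median 1.14) and 1.37 to 8.69 CPM in the center (median 4.79), a log2 difference of -2.14 ± 0.49 (adjusted p = 0.00423 by edgeR). CXCR2-match on day 9 held 1.80 to 22.3 CPM at the edge (median 4.81) and 13.95 to 105 CPM in the center (median 34.1), a log2 difference of -2.73 ± 0.69 (adjusted p = 0.00937 by edgeR), which was lost when the wounds of an animal were summed (adjusted p = 0.0917).

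CSF3 and ITGAM were among the rows called in the first days. CSF3 on day 1 held 1.78 to 8.74 CPM at the edge and 3.62 to 72.8 CPM in the center, a log2 difference of -2.69 ± 0.68 (adjusted p = 0.00676 by edgeR). ITGAM on day 5 held 6.97 to 11.3 CPM at the edge (median 8.79) and 16.2 to 44.8 CPM in the center (median 20.9), a log2 difference of -1.55 ± 0.27 (adjusted p = 0.000571 by edgeR). On that day no ITGAM sample of the edge overlapped the center.

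**Figure D2:**
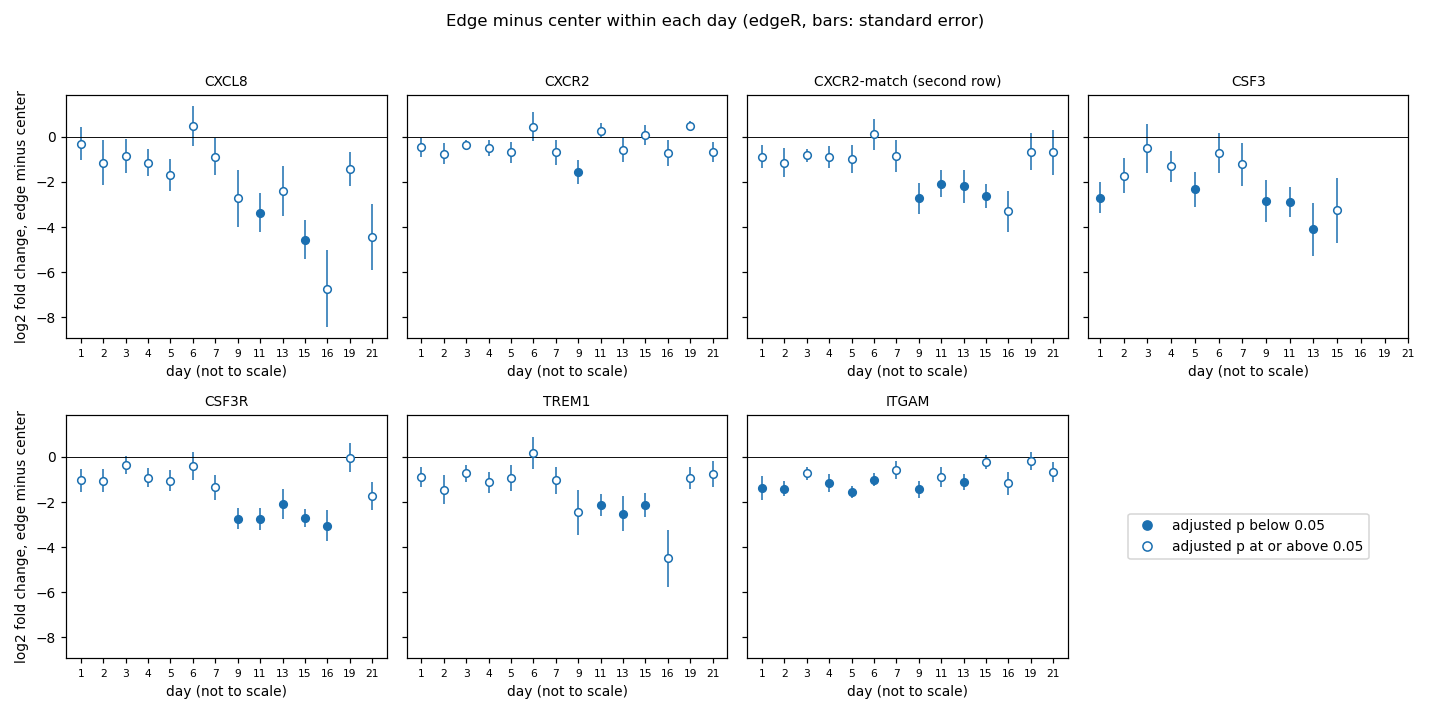
Log2 difference of edge minus center for each row on each day, from the edgeR fit of that day with bars of 1 SE; filled points have an adjusted p below 0.05 and the line at 0 marks equal levels. Filled points all lie below 0, and for CSF3R they sit between -2.08 and -3.04 on days 9 to 16.

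Averaged over the 14 days, all 7 rows were lower at the edge, and over all genes 33.8% were called lower at the edge in this contrast. The log2 difference was -2.22 ± 0.31 for CXCL8, -2.06 ± 0.33 for CSF3, -1.53 ± 0.22 for TREM1, -1.52 ± 0.17 for CSF3R, -1.41 ± 0.21 for CXCR2-match, -0.97 ± 0.12 for ITGAM and -0.40 ± 0.15 for CXCR2. Adjusted p-values of the first 6 lay between 6.63e-14 and 1.94e-08 by edgeR, and that of CXCR2 was 0.0152. The median of the 7 rows was -1.52, against -0.01 over all genes. CXCR2 was the one row whose call did not last. It was lost without animal 1327 (log2 difference -0.17, adjusted p = 0.372), and with limma on log2(1 + CPM) in place of edgeR (adjusted p = 0.0627). Within the animals 1323 to 1325 it was -0.36 ± 0.21 (adjusted p = 0.149), and within the animals 1326 to 1328 it was -0.45 ± 0.22 (adjusted p = 0.0679). The other 6 rows were called within both sets of animals.

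The same comparison was made inside each of the 72 wounds, since every wound gave both samples. ITGAM was lower at the edge in 68 wounds, CSF3 in 64, CXCR2-match, CSF3R and TREM1 in 62 each, CXCL8 in 60 and CXCR2 in 47. For CXCL8 the edge was lower in 30 of the 42 wounds of days 1 to 7 and in 30 of the 30 wounds of days 9 to 21. For CXCR2 it was lower in 30 of 42 and then in 17 of 30. Averaged per animal, the difference in log2(1 + CPM) was below 0 in 6 of 6 animals for every row but CXCR2, which was below 0 in 5. An exact permutation test that flips the signs of the 6 animal means, two-sided, gave p = 0.0312 for each of these 6 rows, the smallest that 6 animals allow, and p = 0.0938 for CXCR2. Adjusted over the 8 such tests run, that of the CXCR2 rows below included, these were 0.0357 and 0.0938. The test was chosen after the data were seen. How many of all genes would reach the same p is not given here.

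Whether the edge and center differed by an amount that changed between days was tested directly. CSF3R (adjusted p = 0.0217) and CXCL8 (adjusted p = 0.0249) passed, as did 30.8% of all genes, and the adjusted p of the other 5 rows lay between 0.129 and 0.719 by edgeR. Without animal 1323, 1324, 1325 or 1326 neither row passed (adjusted p 0.0526 to 0.176 for CXCL8 and 0.0535 to 0.107 for CSF3R). Without animal 1328 CSF3R did not pass (adjusted p = 0.0791).

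Levels were then compared between time windows within each location. From days 1 to 3 to days 4 to 7, 0 of 7 rows were called at the edge (8.80% of all genes lower in the later days) and 0 of 7 in the center (29.9%); by unadjusted p, 1 row at the edge and 1 in the center were below 0.05. From days 4 to 7 to days 9 to 13, all 7 rows fell at the edge (17.3%), and in the center only ITGAM fell (18.3%). From days 9 to 13 to days 15 to 21, CXCL8, CSF3R and CXCR2-match fell further at the edge (5.16%), and all 7 rows fell in the center (13.4%). Between the first and the last window, all 7 rows fell at the edge (24.5%) and in the center (31.4%). With the animal as a block the call of CXCL8 in the center was lost (adjusted p = 0.118).

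At the edge, CXCL8 had a median of 452 CPM on days 4 to 7 and of 30.6 CPM on days 9 to 13, a log2 difference of -3.13 ± 0.58 (adjusted p = 4.87e-06 by edgeR). In the center the medians were 884 and 308 CPM, a log2 difference of -1.11 ± 0.52 (adjusted p = 0.0794). CSF3R had medians of 53.9 and 16.7 CPM at the edge, a log2 difference of -1.24 ± 0.31 (adjusted p = 0.00071 by edgeR). Its medians in the center were 87.9 and 123 CPM, a log2 difference of 0.35 ± 0.30 (adjusted p = 0.361). TREM1 fell from 7.60 to 1.14 CPM at the edge, a log2 difference of -2.36 ± 0.40 (adjusted p = 7.15e-07 by edgeR), against 12.1 and 4.98 CPM in the center (-0.72 ± 0.36, adjusted p = 0.10). ITGAM differed by -1.06 ± 0.22 at the edge and by -0.98 ± 0.22 in the center. The call for CXCR2 at the edge (-0.70 ± 0.27, adjusted p = 0.0376) was lost with the animal as a block (adjusted p = 0.113) and without animal 1323, 1324, 1326, 1327 or 1328 (adjusted p 0.0684 to 0.154).

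Whether a row changed by a different amount at the edge than in the center was tested as a difference of these differences. From days 4 to 7 to days 9 to 13 the edge lost more than the center in CSF3R, by -1.59 ± 0.42 on the log2 scale (adjusted p = 0.00911 by edgeR), in CXCR2-match by -1.68 ± 0.51 (adjusted p = 0.0244) and in TREM1 by -1.64 ± 0.52 (adjusted p = 0.0304). These 3 of 7 rows stood against 8.47% of all genes called in either direction, and the median of the 7 rows was -1.64 against -0.017 over all genes. CXCL8 (-2.02 ± 0.73, adjusted p = 0.0645) and CSF3 (-1.87 ± 0.71, adjusted p = 0.0808) did not pass. For ITGAM the difference was -0.08 ± 0.30 and for CXCR2 it was -0.26 ± 0.38. The CSF3R call was lost without animal 1326 (adjusted p = 0.0695). Those of CXCR2-match and TREM1 were lost without animal 1323, 1324, 1326 or 1327 (adjusted p 0.0604 to 0.253) and when the wounds of an animal were summed (adjusted p = 0.0815 and 0.0905).

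No such difference was called between days 1 to 3 and days 4 to 7 (0 of 7 rows with edgeR, 0 with an unadjusted p below 0.05, 18.2% of all genes) or between days 9 to 13 and days 15 to 21 (0 of 7 rows with edgeR, 0 with an unadjusted p below 0.05, 10.1% of all genes). From the first to the last window the edge lost more CXCL8 than the center, by -3.52 ± 0.90 (adjusted p = 0.00124 by edgeR), the only one of 7 rows, while 28.3% of all genes were called. Without animal 1324 it was -2.41 (adjusted p = 0.0745).

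In the center CSF3R fell from a median of 123 CPM on days 9 to 13 to 27.0 CPM on days 15 to 21, a log2 difference of -1.81 ± 0.38 (adjusted p = 7.28e-05 by edgeR). CSF3 fell from 7.39 to 0.418 CPM (-3.18 ± 0.70, adjusted p = 0.000171 by edgeR), and CXCL8 from 308 to 63.1 CPM (-2.16 ± 0.66, adjusted p = 0.00817 by edgeR). Those falls were called under every alternative run. CXCR2 fell the least, from 26.05 to 17.98 CPM (-0.85 ± 0.33, adjusted p = 0.0424 by edgeR), and this call was lost with the animal as a block (adjusted p = 0.0609), with limma (adjusted p = 0.205), with no filter (adjusted p = 0.058) and without animal 1323, 1324, 1325 or 1327 (adjusted p 0.0662 to 0.501). At the edge between the same windows the calls of CSF3R and CXCR2-match were lost without animal 1324, 1327 or 1328 (adjusted p 0.132 to 0.322), and that of CXCL8 without animal 1327 (log2 difference -2.21, adjusted p = 0.0615).

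The named CXCR2 row and CXCR2-match moved together but not in proportion. In day 0 skin CXCR2 was higher than CXCR2-match by a median of 3.09 on the log2(1 + CPM) scale (2.47 to 3.85, n = 6). In the center of days 1 to 3 this gap had a median of 0.286 (-0.081 to 0.719, n = 18), so that the rows were nearly level in CPM. In the center it was then 0.460 on days 4 to 7, 0.560 on days 9 to 13 and 1.44 on days 15 to 21. At the edge it was 0.697, 0.748, 2.25 and 2.92 in the same windows. In the day 21 center the gap was 2.78, 3.17 and 3.59, within the day 0 range on this scale. The added 1 limits the gap where CXCR2-match is near or below 1 CPM, so equal gaps need not mean equal proportions. Median CPM of CXCR2 and CXCR2-match was 10.37 and 0.172 at day 0, and 23.63 and 1.732 in the day 21 center. The same limit applies at the late edge, where CXCR2-match had a median of 1.203 CPM on days 15 to 21. Inside wounds the gap was wider at the edge in 68 of 72, and averaged over animals by 0.890 ± 0.197 (SD, n = 6; exact permutation of signs, two-sided p = 0.0312, the smallest that 6 animals allow). Expressed as FPKM, which takes the longer annotated transcript of CXCR2-match (5686 bases against 3507) into account, the day 0 medians were 3.03 and 0.0303 and those of the center on days 1 to 3 were 18.7 and 10.4.

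**Figure D3:**
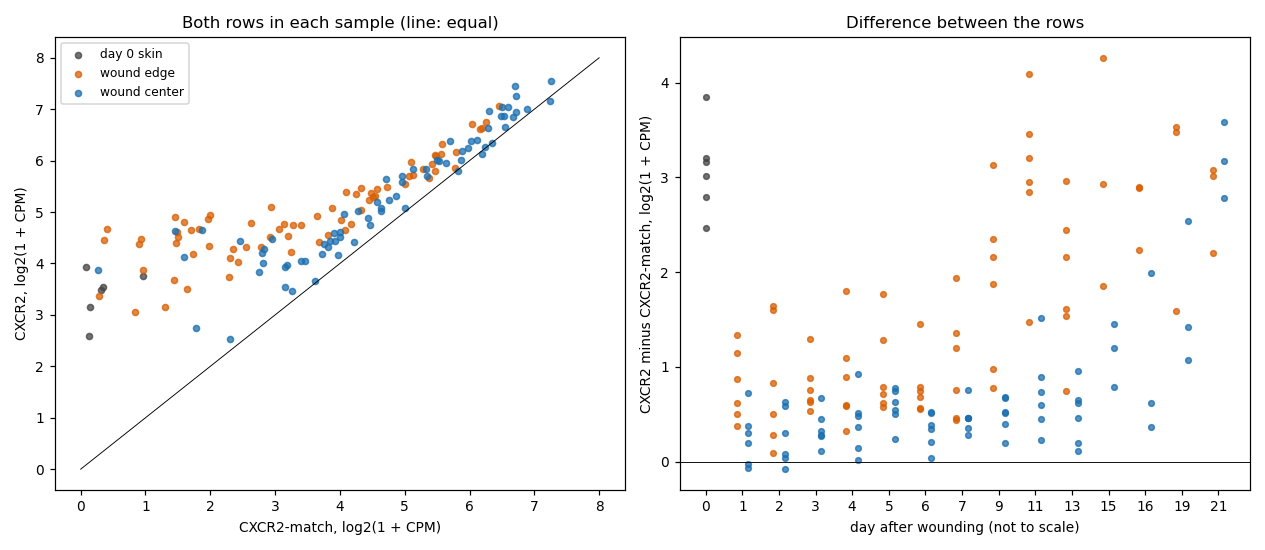
Left, level of the named CXCR2 row against the CXCR2-match row in all 150 samples, both as log2(1 + CPM), coloured by location, with the line of equal levels. Right, the difference of both rows in each sample against the day after wounding; day 0 samples lie between 2.47 and 3.85, edge samples of days 15 to 21 between 1.59 and 4.26, and center samples of days 1 to 3 lie between -0.081 and 0.719.

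Across the 29 states the 7 rows rose and fell together. Pearson's r between state means of log2(1 + CPM) lay between 0.809 and 0.962 over the 21 pairs, with a median of 0.902. The highest was that of CXCR2-match with TREM1 and the lowest that of CXCL8 with CXCR2. After the state mean was taken off each of the 150 samples, r lay between 0.119 and 0.882 with a median of 0.688, so samples of one state that were high in one gene tended to be high in the others. ITGAM was the exception. Its r with the other 6 rows within states lay between 0.119 and 0.290, while the other 15 pairs lay between 0.669 and 0.882. These are descriptions: the points share libraries, animals and depth.

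**Figure D4:**
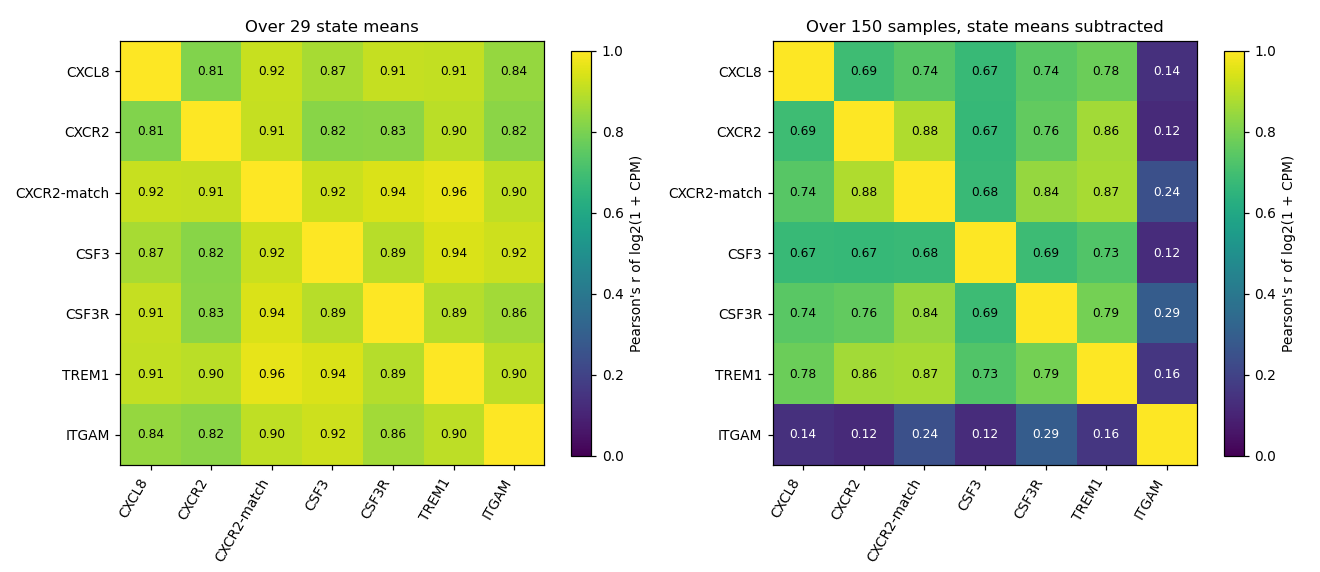
Pearson's r between each pair of the 7 rows in log2(1 + CPM), in the left panel over 29 state means and in the right panel over 150 samples after subtraction of the state mean; colour and printed value give r. In the right panel all pairs with ITGAM lie at 0.290 or lower.

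States accounted for 76.8% of the variance of ITGAM in log2(1 + CPM), 75.2% for CXCL8, 73.4% for CSF3R, 72.9% for CXCR2-match, 65.1% for TREM1, 55.2% for CSF3 and 51.2% for CXCR2, against a median of 60.3% over 13704 genes. Animal 1327 had the highest mean deviation from its states in 6 of the 7 rows. It stood 1.18 above the state means of CXCL8 on the log2(1 + CPM) scale, 0.777 for CSF3, 0.655 for TREM1, 0.583 for CXCR2-match, 0.570 for CSF3R and 0.397 for CXCR2, averaged over 24 samples. For ITGAM its deviation was 0.089, and that of animal 1325 was higher with 0.159. The 2 libraries with the highest mean deviation over the rows were both centers of this animal, day 13 wound C (2.18) and day 6 wound K (2.14).

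**Figure D5:**
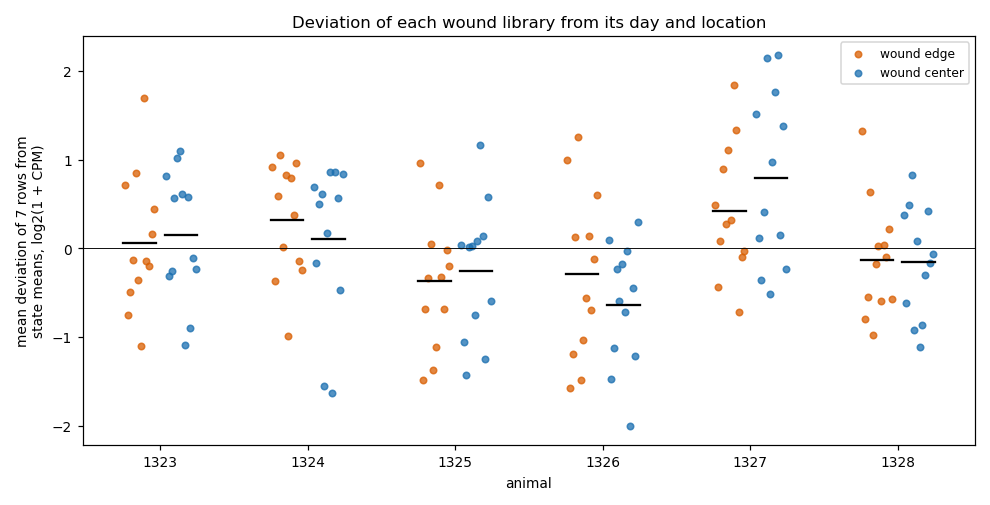
Mean deviation over the 7 rows of each wound library from the mean of its state, in log2(1 + CPM), by animal and location; points are libraries, bars are means over libraries and the line at 0 is the state mean. Animal 1327 has the highest bar at both locations, and its highest libraries, both from the center, reach 2.18 and 2.14.

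Ranked by state mean, neighbouring states could hardly be told apart. Between 27 and 28 of the 28 steps from one state to the next lower one were smaller than the larger of the SDs of both states. The steps that were larger were those from the day 21 edge down to day 0 for CXCL8 and CSF3R, from the day 16 edge down to day 0 for ITGAM, and from the day 21 edge to the day 15 edge for TREM1. The top state was the day 1 center for CXCR2, CXCR2-match and CSF3R, the day 3 center for TREM1 and ITGAM, the day 5 center for CXCL8 and the day 7 center for CSF3. The lowest was day 0 for all but CSF3 (day 19 edge) and TREM1 (day 16 edge).

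The genes whose state means were most like those of each member were named by Pearson's r over the 29 states, out of 13204 candidates. CXCL2, another chemokine that binds CXCR2, was the closest to CXCL8 (r = 0.973), followed by GPR84 (0.967) and the scavenger receptor gene OLR1 (0.959). CXCL2 was also second for TREM1 (0.965), after CREM (0.965) and before XPO6 (0.961). For CSF3R they were PIGE-108A11.3 (0.988) and PLEK (0.984). For CSF3 they were SLCO4A1 (0.979), the phosphatase gene DUSP2 (0.964) and MEFV (0.964). CXCR2-match had SDS (0.987), STK17A (0.971) and XPO6 (0.971). CXCR2 had TRIB1 (0.917), MAP3K8 (0.908) and STX11 (0.906), the lowest values of the 7. ITGAM had GGTA1P (0.970), RAB8B (0.969) and PICALM (0.968).

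Other genes of the same pathway did not all share the direction. The receptors, adaptors and adhesion genes moved as the members did: averaged over 14 days 10 of 11 rows were lower at the edge and none higher, with a median log2 difference of -0.99, while 33.8% of all genes were called lower and 32.5% higher in this contrast. Among them were SELP (P-selectin, -1.33 ± 0.12, adjusted p = 1.30e-18 by edgeR), its ligand SELPLG (-1.07 ± 0.10, adjusted p = 2.87e-18) and the complement receptor gene C5AR1 (-1.14 ± 0.11, adjusted p = 4.37e-18). ITGB2, the partner chain of ITGAM, was lower by the same measure (-1.08 ± 0.10, adjusted p = 6.07e-18), and was chosen to be named after its value was seen. Of the ligands, 4 of 8 rows were higher at the edge and 2 lower, with a median of -0.04. CXCL2 was lower (-1.84 ± 0.27, adjusted p = 9.93e-10), while the epithelial cytokine genes IL36G (4.51 ± 0.38, adjusted p = 6.57e-20) and IL17C (2.37 ± 0.35, adjusted p = 1.58e-09) were higher, by edgeR. Both of the latter were low, which limits how far their difference can be sized. The medians at the edge and in the center were 1.19 and 0.0 CPM for IL36G and 0.775 and 0.104 CPM for IL17C. The 8 rows include a gene with an SE of 9049, whose difference could not be sized. Of the granule, oxidase and other neutrophil products, 5 of 18 rows were higher at the edge and 7 lower, with a median of -0.15, shares near those of all genes. LTF, which codes for lactoferrin, was higher (5.88 ± 0.44, adjusted p = 2.60e-24 by edgeR), while the oxidase gene CYBA (-0.80 ± 0.07, adjusted p = 9.55e-19) was lower. No row carried the symbol CXCL1, CXCL3, CXCL5, CXCL6, CXCR1, ITGAL, CTSG or CAMP, and none was analysed under these names. Whether CXCR2-match, whose identity is uncertain, is CXCR1 was not tested.

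Markers of cell types were read beside these results. A neutrophil list had rows for 9 of its 13 genes, and its sum was carried by S100A9, S100A12 and S100A8, which keratinocytes of wounded skin also make. Of the granule genes MPO, PRTN3, MMP8, LTF and ELANE, the medians over all samples were 0.0904, 0.296, 0.190, 2.19 and 2.56 CPM. LTF was uneven, with medians of 35.3 CPM at the edge and 0.392 CPM in the center and a highest sample of 699.9 CPM. MPO was at 0 in 55 of 150 samples, MMP8 in 32, PRTN3 in 16, LTF in 7 and ELANE in none. PADI4, which codes for an enzyme that citrullinates histones in neutrophils, had a median of 5.61 CPM and was at 0 in none. The summed level of the list was higher at the edge up to day 13, with medians of 1127 CPM at the edge and 300.0 CPM in the center on days 1 to 3, 979 and 184 CPM on days 4 to 7 and 4000 and 264 CPM on days 9 to 13. On days 15 to 21 the order was the other way round, with 195 CPM at the edge and 904 CPM in the center. Its r with the members over state means lay between -0.114 and 0.179. The monocyte and macrophage list, with rows for all 10 genes, was higher in the center, with medians of 1261 CPM (320.0 to 2773) at the edge and 2246 CPM (1003 to 3564) in the center on days 1 to 3, and 776 CPM (357 to 1691) and 2058 CPM (944 to 3664) on days 9 to 13. Its r with the members lay between 0.645 for CXCR2 and 0.904 for CSF3R. The keratinocyte list, with 8 of 10 genes, had medians of 46270 CPM at the edge and 201 CPM in the center on days 1 to 3, and its r with the members lay between -0.768 and -0.477. Of the other lists, the r with the members lay between 0.499 and 0.773 for endothelium, 0.458 and 0.787 for T cells, -0.677 and -0.398 for fibroblasts, 0.326 and 0.431 for erythrocytes and 0.287 and 0.58 for skeletal muscle. The part of these cell types in the edge and center difference of the members was not tested.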

How the data were processed

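Bulk tissue RNA (poly-A, paired-end reads) was sequenced from 150 samples. The authors' provider removed adapter, poly-N and low-quality reads and aligned the rest; the aligner, counter and genome build were not given in the sources used here. The deposited table holds raw read counts per gene and the authors' FPKM, with gene names, positions and protein matches. Levels here are CPM, from each library's gene count total, and log2(1 + CPM); FPKM was used as deposited to compare levels between genes.

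Counts were tested with edgeR 4.0.16 in R 4.3.3 (quasi-likelihood F test, TMM factors, low genes dropped by filterByExpr at 10 counts and at a total of 15 counts), with Benjamini-Hochberg adjustment over all genes tested and a threshold of 0.05. Edge and center of one day were fitted on that day's samples; the other comparisons came from one fit of all 150 samples with a coefficient for each of 29 states. Before use, both kinds of fit were run on simulated counts in which 200 genes had been changed. These counts were drawn without any effect of animal or wound, so that run does not cover shared animals or paired wounds. Its outcome is not given here. Alternatives used DESeq2 1.42.0 and limma 3.58.1 on log2(1 + CPM), library size only, no filter, wounds of an animal summed, samples left out, and the wound or animal as a block. Edge and center samples pair by wound per the labels; over 13704 genes the deviations of such pairs from their state means correlated with a mean r of 0.275 and positively in 64 of 72 wounds. P-values treat wounds as replicates, although on the 10 days with 6 wounds each sampled animal gave 2 of them. In comparisons over several days the same 6 animals also recur. The main fits held no block for wound or animal.

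The members and gene lists were chosen with earlier results of these data known. Named genes were all members, for each member the 3 genes most like it over the state means, and the 3 genes of each pathway list with the lowest adjusted p between edge and center; 2 genes that this rule names are not reported here. Tests within animal sets, sign-flip tests and the test of window changes between edge and center were chosen after seeing the data.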

Additional observations from a re-analysis of the deposited data

Results flagged for a closer look

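Of 147 groups of 6 samples (7 rows in day 0 skin and 20 wound states), 7 held a sample that stood far from the other 5, measured as its gap to the nearest sample divided by the range of the group on the log2(1 + CPM) scale. Chance flags about 1 in 20 such groups, or 7.35 of 147. Of these, 3 were the day 6 center of animal 1327 wound K, which held 116 CPM of CXCR2 against 10.03 to 20.7 CPM in the others (ratio 0.713), 91.5 CPM of CXCR2-match against 7.92 to 14.1 CPM (ratio 0.774) and 33.7 CPM of TREM1 against 2.83 to 6.11 CPM (ratio 0.72). Another sample of this animal, the day 13 edge of wound J, held 3.62 CPM of CSF3 against 0.171 to 0.832 CPM (ratio 0.674). The day 3 center of animal 1325 wound G was low in CXCL8, with 57.2 CPM against 720.0 to 2426 CPM (ratio 0.675). In day 0 skin animal 1325 was high in CXCL8, with 0.573 CPM against 0 to 0.171 CPM (ratio 0.651), and in CXCR2-match, with 0.955 CPM against 0.0571 to 0.263 CPM (ratio 0.711); these levels are 15 counts or fewer.

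The difference between edge and center varied between days in CXCL8 (adjusted p = 0.0249 by edgeR) and CSF3R (adjusted p = 0.0217). The change from days 4 to 7 to days 9 to 13 was larger at the edge than in the center in CSF3R (adjusted p = 0.00911), CXCR2-match (adjusted p = 0.0244) and TREM1 (adjusted p = 0.0304), and the change from days 1 to 3 to days 15 to 21 was larger at the edge in CXCL8 (adjusted p = 0.00124). All of these calls were lost without at least 1 animal, as given with each in the results.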

How the results depend on the processing

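The counts of calls moved as follows. Edge against center within days gave 27 calls and 24 to 40 under the other settings, the highest with the wound as a replicate block; leaving out 1 wound of every day gave 12 to 23, with 12 without the wound numbered 2 and 16 without that numbered 3. Averaged over the days, 7 rows were called, or 6 to 7 without 1 animal, 6 with limma and 7 with the wound as a block. Against day 0, 165 tests were called, 144 to 171 under the other settings (154 with the animal as a block) and 153 to 160 without 1 animal. Between windows 32 were called, 30 to 35 under the other settings (30 with the animal as a block) and 29 to 33 without 1 animal. For the difference that varies between days 2 rows were called, 1 with limma, 3 with DESeq2, 2 with the wound as a block, and 0 to 2 without 1 animal. For the change between windows at the edge against the center 4 were called, 2 with the wounds of an animal summed, 5 with the wound as a block, 6 with DESeq2, and 1 to 4 without 1 animal. Of 237 called values 60 lost their call under at least 1 setting. The value of 1 result changed sign: CSF3 in the day 15 center against day 0 was -0.17 without animal 1325 and 4.19 without animal 1324, since 1 of its 3 samples held most of the counts. The causes of the other changes were not tested. In day 0 skin CXCL8 and CXCR2-match rest on 15 counts or fewer per library, which limits how far their rise can be sized.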
